A study of Homo sapiens with 6 samples.

Results

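Mitosis and spindle genes are described here across SKM-1 cells, an established human acute myeloid leukaemia line, treated with BOR, with vemurafenib or with both. The genes were chosen by name from a list of 40, and all 40 were found, with values in every library, among the 26704 genes of the tables. By role, 26 act early in mitosis, from entry to the spindle checkpoint, 10 act late, from anaphase onset to cytokinesis, and 4 act in both phases. Each of the 40 also passed the filter on low values, a mean normalised read count of at least 10 per library, in all 3 comparisons.

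There were 2 libraries of cells given BOR (BOR 1 and BOR 2), 1 of cells given VEM, 1 of cells given VEM+BOR, and 2 of untreated cells. In the labels BOR 1 is SAMPLE2 and BOR 2 is SAMPLE6. VEM stands for vemurafenib, an inhibitor of RAF kinases. The labels leave BOR unexplained and state neither dose nor time. They also do not say whether libraries of a group were separate cultures, so p-values measure only how far these libraries spread, and that may be technical. Since SKM-1 is 1 line, the values describe that line alone.

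Cells that enter mitosis switch on CDK1 bound to cyclin B, condense their chromosomes and build a bipolar spindle from microtubules. Kinetochores, the protein plates on each centromere, bind the microtubules, and the spindle checkpoint holds the anaphase-promoting complex inactive until every chromosome is attached. CDC20 then activates that complex, securin and cyclin B are destroyed, the chromosomes part, and the central spindle directs cytokinesis. Transcripts of many of these genes peak late in the cell cycle, through promoters with CCAAT boxes and with a cell cycle homology region whose core is often TTTGAA or TTTAAA. Their level in a bulk library therefore follows both how many cells are near mitosis and how much RNA each holds, and these cannot be told apart here.

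Promoters were matched for 33 of the 40 genes in RefSeq (GRCh38.p14), as windows of 300 bases around the start that RefSeq gives each gene. For some genes, such as NUF2, CENPA, PLK1, PRC1 and TACC3, this start differs from the outer end of the gene in GENCODE 29. AURKA, BIRC5, BUB3, RACGAP1, TPX2, TTK and UBE2C were not matched. CCAAT, read on both strands, was found in 25 of the 33 windows (75.8%), against 35.7% of 27305 promoters of the same length. TTTGAA, also on both strands, was found in 22 windows (66.7%), against 15.4% of all promoters, and TTTAAA, which reads the same on both strands, in 12 windows (36.4%), against 12.3%. At least 1 CCAAT together with TTTGAA or TTTAAA was present in 21 windows (63.6%), against 9.49% of all promoters. These shares describe letters in the windows and say nothing of which factors bind there.

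The windows of 5 genes are shown because their transcripts mark the ends of the patterns described below, with matches in capitals. HMMR (chr5:163460382-163460681, plus strand), TOP2A (chr17:40417847-40418146, minus strand) and CENPF (chr1:214602945-214603244, plus strand) were among the 4 lowest members in BOR 2. CDK1 (chr10:60778081-60778380, plus strand) was the highest member in VEM and in VEM+BOR, and KIF2C (chr1:44739587-44739886, plus strand) was among the members that were higher in BOR 2. ATTGG and TTCAAA are CCAAT and TTTGAA read on the other strand, and a CCAATTGG run holds CCAAT on both.
HMMR: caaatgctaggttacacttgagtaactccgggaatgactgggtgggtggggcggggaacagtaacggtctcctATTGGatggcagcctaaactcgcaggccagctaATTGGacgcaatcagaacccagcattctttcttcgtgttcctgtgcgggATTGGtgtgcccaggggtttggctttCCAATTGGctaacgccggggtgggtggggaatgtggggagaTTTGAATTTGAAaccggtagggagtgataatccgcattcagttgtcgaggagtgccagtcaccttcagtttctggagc
TOP2A: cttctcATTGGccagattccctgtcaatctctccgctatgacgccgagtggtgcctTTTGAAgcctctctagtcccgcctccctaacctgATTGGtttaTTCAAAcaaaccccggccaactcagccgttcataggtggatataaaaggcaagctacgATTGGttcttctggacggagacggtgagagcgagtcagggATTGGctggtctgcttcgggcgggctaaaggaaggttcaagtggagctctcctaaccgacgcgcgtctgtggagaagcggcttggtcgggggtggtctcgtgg
CENPF: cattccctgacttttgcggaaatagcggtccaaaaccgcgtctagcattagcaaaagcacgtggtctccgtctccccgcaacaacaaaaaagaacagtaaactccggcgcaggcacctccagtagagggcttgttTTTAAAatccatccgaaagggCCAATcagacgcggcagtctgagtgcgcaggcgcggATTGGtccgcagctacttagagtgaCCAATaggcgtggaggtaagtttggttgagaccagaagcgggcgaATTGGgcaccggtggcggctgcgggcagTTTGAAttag
CDK1: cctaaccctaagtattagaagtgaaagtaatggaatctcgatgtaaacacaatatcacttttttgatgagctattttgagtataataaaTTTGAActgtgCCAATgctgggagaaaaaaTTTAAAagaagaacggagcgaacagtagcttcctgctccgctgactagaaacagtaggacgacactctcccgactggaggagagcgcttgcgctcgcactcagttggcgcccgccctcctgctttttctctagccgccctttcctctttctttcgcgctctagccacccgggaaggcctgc
KIF2C: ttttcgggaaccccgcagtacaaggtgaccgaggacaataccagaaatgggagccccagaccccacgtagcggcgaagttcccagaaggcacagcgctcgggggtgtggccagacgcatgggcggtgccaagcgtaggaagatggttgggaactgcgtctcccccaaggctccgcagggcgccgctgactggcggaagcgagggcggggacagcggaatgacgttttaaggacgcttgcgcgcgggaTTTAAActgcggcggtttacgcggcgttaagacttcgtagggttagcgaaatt

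HMMR held 5 CCAAT matches and 2 of TTTGAA. TOP2A held 4 CCAAT matches and 2 of TTTGAA, and CENPF held 4 CCAAT matches, 1 TTTGAA and 1 TTTAAA. CDK1 held 1 of each. KIF2C held no CCAAT and 1 TTTAAA, while PTTG1, also above both untreated libraries in BOR 2, held 3 CCAAT matches and 1 TTTAAA. The window of CENPE, the lowest member in BOR 2, is not shown and held no CCAAT, no TTTGAA and 3 TTTAAA. NUF2, BUB1B, ANLN and NDC80, each at least 10.4-fold lower in BOR 2, held no CCAAT either. A relation between these matches and the BOR 2 values was not tested.

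Before the results, 1 library has to be set apart. BOR 2 differed from the untreated libraries far more widely than BOR 1 did: 25.2% of 15382 genes were over 2-fold lower than the untreated mean in BOR 2 and 1.35% in BOR 1, while 16.7% were over 2-fold higher in BOR 2 and 1.25% in BOR 1. Depth was similar, between 17252404 and 18507606 reads per library, and the 40 genes took 0.156% of the reads in BOR 2, against 0.435% to 0.552% in the other libraries. The BOR libraries are therefore given separately. All libraries carried the markers of a myeloid leukaemia line, with 10 of 12 listed genes measured and a summed level of 3150 to 7970 CPM (reads scaled to the library total). CD34 and KIT were not among them, and 4 of 5 T cell markers, 3 of 5 erythroid markers and 3 of 5 epithelial markers were at 0 or not listed. Of the 5 B cell markers, 4 were listed, with a summed level of 6.43 to 16.6 CPM. PTPRC of the myeloid list had 10.8 CPM in BOR 2, against 175 to 272 CPM in the other libraries.

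In untreated cells, the level per kb of the gene's exons spanned a wide range. CDC20, the activator of the anaphase-promoting complex, was highest with 112.0 and 131.6 CPM per kb in untreated 1 and untreated 2. CCNB1, which encodes cyclin B1, followed with 104.2 and 125.8 CPM per kb, so the ranges of the highest pair overlapped. TOP2A, the topoisomerase that untangles chromosomes, had 121.6 and 67.89 CPM per kb, the widest gap of these 3. PRC1, a cross-linker of the central spindle, was lowest with a mean of 0.458 CPM per kb, below UBE2C, the E2 enzyme of the anaphase-promoting complex, at 2.13 CPM per kb. Of PRC1's exonic bases 57.6% lie under another gene on the same strand, mainly AC068831.7, so its reads are uncertain. BUB1B shares 10.2% and CENPA 6.96% of exonic bases with a neighbour on the same strand. PLK1, CCNA2 and CDC25C share 12.5%, 9.08% and 8.78% of exonic bases with a gene on the opposite strand, and with no strand-marking step named those reads cannot be told apart.

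Most mitotic genes were lower in BOR 2 and near untreated cells in BOR 1. BOR 2 was lower than the untreated mean for 35 of the 40 genes, with a median log2 difference of -1.32, against a median of 0.05 over all genes tested. BOR 1 was lower for 15 of the 40, with a median of 0.04, against 0.05 over all genes. Below both untreated libraries lay 33 members in BOR 2, where 41.5% of all genes did, and 6 members in BOR 1, where 20.1% of all genes did. Above both lay 5 members in BOR 2 (44.2% of all genes) and 17 in BOR 1 (30.4% of all genes). Past 2-fold, 24 members were lower and 2 higher in BOR 2, against 25.2% and 16.7% of all genes, and 0 members were past 2-fold in BOR 1.

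**Figure D1:**
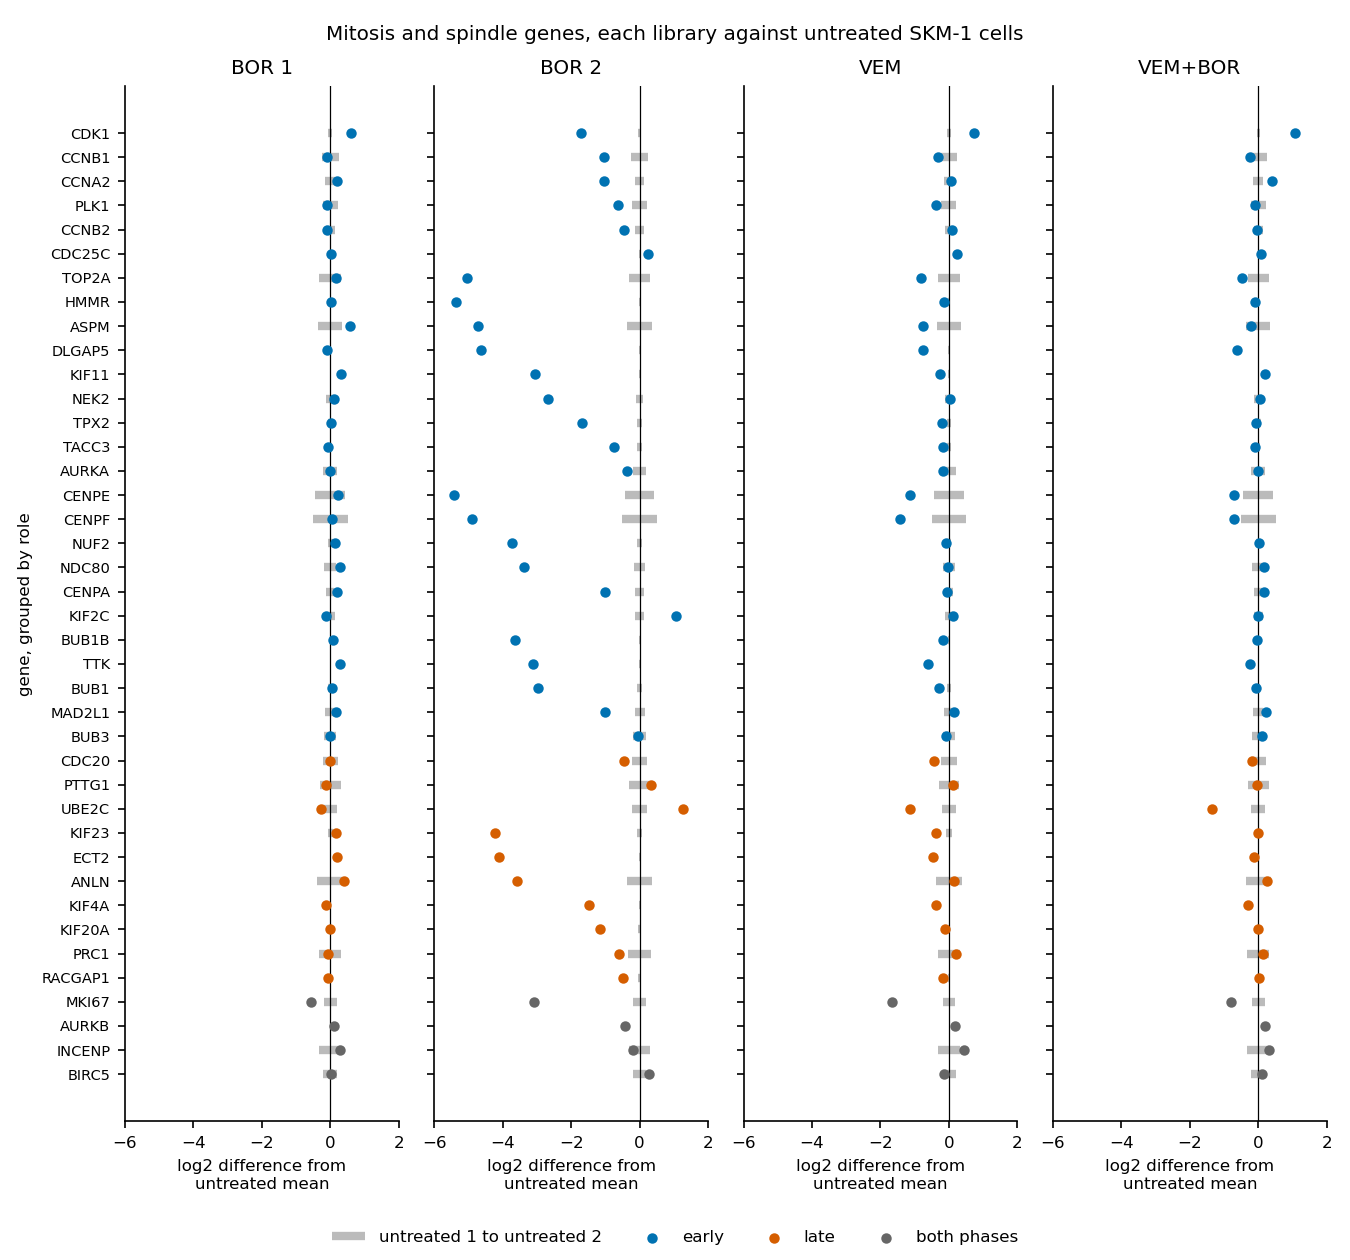
Log2 difference of each member from the mean of the 2 untreated libraries (x axis, log2 of normalised read count plus 1), with genes down the page by role, 1 panel per treated library, early genes blue, late genes orange and genes of both phases grey. Grey bars span the untreated libraries around their mean, and in BOR 2 the points spread from -5.42 for CENPE to 1.28 for UBE2C while in BOR 1 they stay between -0.57 and 0.60.

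Tested as a group of 2 against the untreated libraries, 0 of the 40 genes passed limma at an adjusted p under 0.05 for BOR, with 0% of all genes called in either direction. Likewise 0 members stood at an unadjusted p under 0.05, where 0.202% of genes did with higher and 0.0455% with lower values. EdgeR called 0 genes and DESeq2 35 genes on the recovered reads, with 0 members among them. The 2 BOR libraries together lay below both untreated libraries for 5 members, MKI67, KIF4A, RACGAP1, DLGAP5 and TACC3, where 8.24% of all genes did, and above both for CDC25C alone, where 11.7% did. MKI67, the proliferation marker Ki-67 that coats mitotic chromosomes, had normalised read counts of 4013 in BOR 1 and 704 in BOR 2, against 6777 and 5247 without treatment. Its log2 change was -1.83 ± 0.83 (SE, limma adjusted p = 0.968), and both BOR values lay below both untreated values. DLGAP5, a spindle assembly protein, had 1099 in BOR 1 and 45.7 in BOR 2, against 1185 and 1153, so BOR 1 stood close to the untreated libraries and BOR 2 far below.

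With BOR 1 left out, so that BOR 2 alone was set against the untreated libraries, limma called 21 members lower and 0 higher, where 16.3% of 15371 genes were called lower and 9.74% higher. The 21 comprised 15 early genes, 5 late genes and MKI67. With BOR 2 left out, limma called 0 of 15383 genes, with 61 genes at an unadjusted p under 0.05. The first of these fits compares 1 library with the untreated pair and cannot tell BOR from what else sets that library apart.

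Among the members, the median of entry genes was nearer to untreated cells in BOR 2 than the medians of spindle assembly and kinetochore genes. This did not hold against a wider list of kinetochore genes, given below. CDK1, the kinase that drives entry, had normalised read counts of 3562 in BOR 1 and 720 in BOR 2, against 2427 and 2263 without treatment. BOR 1 stood above and BOR 2 below both untreated libraries. CCNB1 had 4413 in BOR 1 and 2253 in BOR 2, against 3942 and 5517, and CCNA2, which encodes cyclin A2, had 3309 and 1418, against 2621 and 3179. In BOR 1 they stood at 0.946 and 1.15 times the untreated mean, and in BOR 2 they were 2.07-fold and 2.03-fold lower. PLK1, a kinase of entry and spindle function, had 3034 and 2106 in BOR 1 and BOR 2, against 2806 and 3790. CDC25C, the phosphatase that activates CDK1, had 274.8 in BOR 1 and 321.3 in BOR 2, against 269.8 and 268.2. It was the member for which both BOR libraries stood above both untreated ones, by 1.02 and 1.19 times the untreated mean.

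Spindle assembly genes held some of the lowest values in BOR 2. HMMR, a microtubule-binding protein of the spindle poles, had 1401 in BOR 1 and 32.6 in BOR 2, against 1353 and 1390 without treatment. BOR 1 lay just above the untreated pair, and BOR 2 was 40.8-fold lower than their mean, at a low count. ASPM, which focuses spindle poles, had 1981 and 49.6, against 1696 and 1035, and KIF11, the kinesin that pushes the poles apart, had 1918 and 185.4, against 1532 and 1574. AURKA, the kinase of spindle poles, had 2253 in BOR 1 and 1755 in BOR 2, against 1982 and 2621, which made it the spindle assembly member nearest to untreated cells. TACC3, a partner of AURKA at microtubules, had 3045 and 1930, against 3080 and 3349. NEK2 and TPX2 were 6.38-fold and 3.18-fold lower in BOR 2 and within 1.08-fold and 1.02-fold of untreated cells in BOR 1.

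Kinetochore genes split in BOR 2. CENPE, the kinesin that carries chromosomes to the spindle equator, had 1101 in BOR 1 and 20.9 in BOR 2, against 1266 and 696.1 without treatment. This was the largest difference among the 40 genes in BOR 2 at 42.9-fold lower. The BOR 2 count of CENPE was low, so that fold is imprecise. CENPF, a large protein of the outer kinetochore, had 2759 and 87.5, against 3768 and 1865. NUF2 and NDC80, subunits of the complex that grips microtubules, were 13.2-fold and 10.4-fold lower in BOR 2. CENPA, the centromeric histone, was 1.99-fold lower in BOR 2. KIF2C, a kinesin that takes microtubules apart, went the other way, with 2564 in BOR 1 and 5779 in BOR 2, against 2537 and 3025. BOR 1 lay between the untreated libraries, and BOR 2 was 2.09 times their mean.

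The spindle checkpoint genes also ran from near untreated to far lower. BUB1B, the checkpoint kinase-like protein BUBR1, had 1895 in BOR 1 and 143.6 in BOR 2, against 1822 and 1780 without treatment. TTK and BUB1, kinases of the checkpoint, were 8.64-fold and 7.85-fold lower in BOR 2, and MAD2L1, its effector, was 2.02-fold lower. BUB3, the adaptor that brings BUB1 and BUB1B to kinetochores, had 3155 in BOR 1 and 3083 in BOR 2, against 2821 and 3615. Both BOR values of BUB3 lay between the untreated ones. TOP2A had 10417 and 279.5, against 11570 and 7494, which was 33.2-fold lower in BOR 2.

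Late genes divided by step. At anaphase onset, CDC20 had 3886 in BOR 1 and 2872 in BOR 2, against 3376 and 4598 without treatment. PTTG1, which encodes securin, had 1899 and 2599, against 1667 and 2537. UBE2C had 35.8 and 107.1, against 37.4 and 50.4, at low counts. PTTG1 and UBE2C were thus above both untreated libraries in BOR 2 and not in BOR 1. Among cytokinesis genes, KIF20A, a kinesin of the central spindle, had 1273 in BOR 1 and 569.4 in BOR 2, against 1301 and 1234, and PRC1 had 36.7 and 24.8, against 48.5 and 30.4. KIF23, ECT2 and ANLN, which link the central spindle to the cleavage furrow, were 18.6-fold, 17.3-fold and 12.0-fold lower in BOR 2. KIF4A, a chromokinesin of the central spindle, and RACGAP1, the partner of KIF23, were 2.80-fold and 1.40-fold lower. Among genes of both phases, AURKB, the kinase of the chromosomal passenger complex, and its partner INCENP were 1.33-fold and 1.15-fold lower in BOR 2, and BIRC5, which encodes the passenger protein survivin, had 2416 in BOR 1 and 2912 in BOR 2, against 2079 and 2737.

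Set directly against each other, BOR 2 was past 2-fold lower than BOR 1 for 24 members, where 26.6% of all genes were, and past 2-fold higher for KIF2C and UBE2C, where 18.1% of all genes were. The median log2 difference was -1.30 over the 40 genes and 0.03 over all genes tested. MKI67 was the member furthest below the untreated mean in BOR 1, with a log2 difference of -0.57, and CDK1 and ASPM were the furthest above, at 0.60 and 0.58. With library-total scaling, which moves all genes of a library alike and set the median of all genes in BOR 2 to -0.54, 38 members lay below the untreated mean in BOR 2 and only KIF2C and UBE2C above it.

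Members low in GC were the lowest in BOR 2. Spearman's rho between GC content of the longest transcript and the log2 difference in BOR 2 was 0.76 over the 40 genes and 0.46 over 15375 genes, all points sharing the same 3 libraries. In BOR 1 it was -0.57 over the 40 genes and -0.31 over all. Transcript length gave -0.49 over the 40 genes and -0.21 over all in BOR 2. In the lowest 3 of 10 GC bins, from 23.1% to 43.5%, 21 members had a median of -3.59 in BOR 2, against -1.15 over 4613 genes. In the upper 7 bins, 19 members had a median of -0.46, against 0.37 over 10762 genes.

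**Figure D2:**
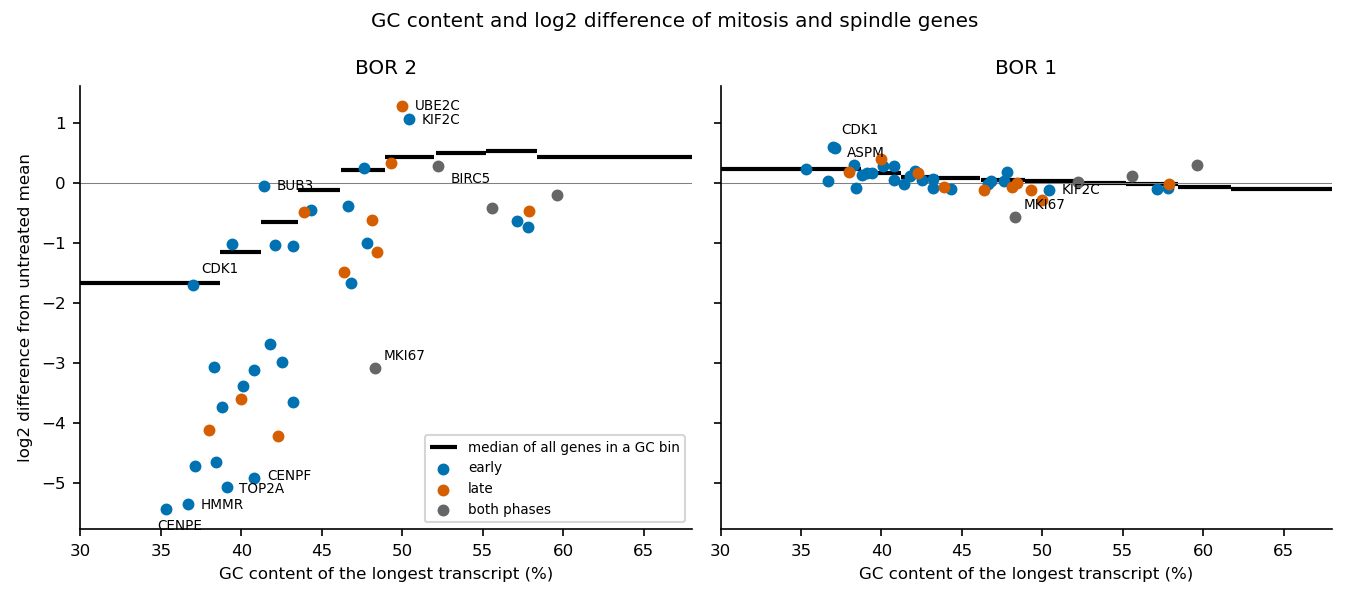
GC content of each member's longest transcript (x axis, percent) against its log2 difference from the untreated mean (y axis), BOR 2 on the left and BOR 1 on the right, with black lines for the median of all genes in each of 10 GC bins. In BOR 2 the lines climb from -1.67 in the lowest bin to 0.53 at 55.2% to 58.4% GC and most low-GC members lie far below them, while in BOR 1 both lines and members stay near 0.

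Each gene was therefore also set against tested genes of the same class, out of 10 bins of GC by 5 bins of transcript length. On that scale the members' median in BOR 2 was -1.38, 36 of 40 lay below the median of their class, as 49.9% of all genes did, and 23 lay at least 2-fold below it, as 19.7% of all genes did. HMMR stood at -3.62, CENPE at -3.39, MKI67 at -3.03 and CDK1 at -0.58, and PTTG1 at -0.09 was nearest to its class. BUB3 at 1.03, UBE2C at 0.86, KIF2C at 0.46 and MAD2L1 at 0.23 were the members above theirs. The members' median in BOR 2 was thus -1.32 before and -1.38 after the subtraction, with members shifting in opposite directions. CENPE, low in GC, stood at -5.42 before and -3.39 after. PLK1, higher in GC, stood at -0.63 before and -1.15 after. The part of GC content and length in the BOR 2 values was not tested.

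Early genes were lower than late genes in BOR 2 but not in the other libraries. The early median was -2.19 and the late median -0.88 in BOR 2, a difference of -1.31. In BOR 1 the medians were 0.07 and -0.04, in VEM -0.17 and -0.28, and in VEM+BOR -0.03 and -0.03. The groups overlapped in every library: in BOR 2 early genes ran from -5.42 to 1.06 and late genes from -4.21 to 1.28. By role, the members' medians in BOR 2 were -0.83 for entry, -2.87 for spindle assembly, -3.55 for kinetochores, -2.97 for the checkpoint, 0.34 for anaphase onset and -1.49 for cytokinesis. The order did not follow the order of mitosis, since entry genes were nearer to untreated cells than cytokinesis genes were.

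**Figure D3:**
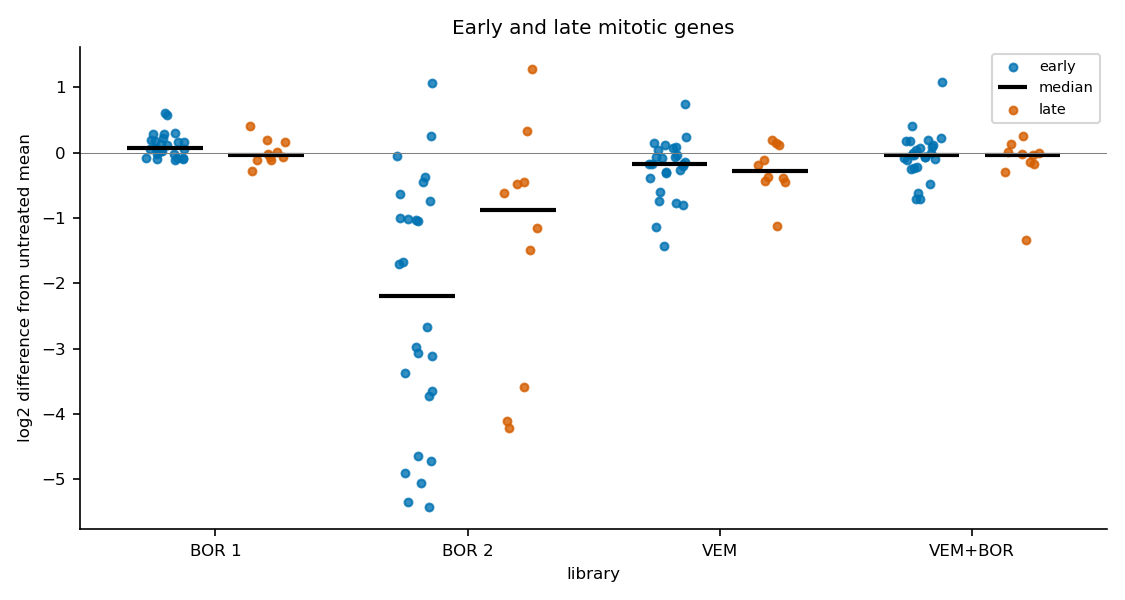
Log2 difference from the untreated mean (y axis) for the 26 early genes (blue) and 10 late genes (orange) in each treated library (x axis), 1 point per gene, with black lines for medians. In BOR 2 the early median is -2.19 and the late median -0.88 with overlapping points, and in BOR 1, VEM and VEM+BOR the medians differ by 0.11 or less.

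Early and late genes also differed in GC content, with medians of 41.6% and 47.2%. After the subtraction of the GC and length class, the early median in BOR 2 was -1.70 and the late median -1.18, a difference of -0.53. No test of early against late was made, since genes are not replicates of a condition.

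In VEM, MKI67, CENPF and CENPE were the lowest members with over 5 CPM and CDK1 the highest, and no member passed the test of 1 library against 2. Limma called 0 of the 40 genes in VEM, where 0.0382% of 15689 genes were called higher and 0.00637% lower, and 3 members were lower at an unadjusted p under 0.05, where 1.04% of genes were. Below both untreated libraries lay 23 members, 15 early, 7 late and MKI67, where 27.6% of all genes did. Above both lay CDK1, AURKB, CDC25C and INCENP, where 30.3% of all genes did. Past 2-fold lower than the untreated mean were MKI67, CENPE, CENPF and UBE2C, where 2.32% of all genes were. The median log2 change was -0.17 over the 40 genes and 0.00 over all genes tested.

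MKI67 had a normalised read count of 2126 in VEM, against 7592 and 5873 in untreated cells. VEM was thus below both, with a log2 change of -1.65 ± 0.40 (SE, limma adjusted p = 0.336), while the authors' deposited table gave MKI67 an adjusted p of 0.026, a call it gave for lower values to 0.0191% of genes. With library-total scaling limma gave MKI67 a log2 change of -1.59 and an adjusted p of 0.00186. Its adjusted p ran from 0.00186 to 1 over the alternatives. Library-total scaling was chosen after seeing the data, and none of the limma settings planned beforehand called MKI67 or CENPF in VEM. MKI67 lies on chromosome 10 from 128096659 to 128126385 on the minus strand (GENCODE 29, GRCh38).

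CENPF had 1108 in VEM, against 4221 and 2087 untreated, a log2 change of -1.42 ± 0.42 (SE, limma adjusted p = 0.662). CENPE had 478.5, against 1419 and 779.2, a log2 change of -1.13 ± 0.41 (SE, limma adjusted p = 1). TOP2A had 5962, against 12962 and 8388, a log2 change of -0.81. All 3 lay below both untreated libraries, which themselves differed widely, untreated 1 being the higher in each. CENPF alone of the 3 passed limma with library-total scaling, at a log2 change of -1.36 and an adjusted p of 0.0444 (range 0.0444 to 1 over the alternatives).

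These are long transcripts. Spearman's rho between transcript length and the log2 change in VEM was -0.41 over the 40 genes and 0.07 over 15175 genes, all points sharing the same 3 libraries. Between the untreated libraries, rho of length with untreated 2 minus untreated 1 was -0.52 over the 40 genes and -0.27 over 15375 genes. Markers of the cells' state also differed in VEM and VEM+BOR. The myeloid list summed to 3820 CPM in VEM and 3150 CPM in VEM+BOR, against 7840 and 7970 CPM in untreated cells, and the monocyte maturation list to 5300 and 5210 CPM, against 3500 and 3200 CPM. The granule genes PRTN3, ELANE, MPO and AZU1 made up most of the myeloid sum and were lower in both. CEBPA was also lower, at 78.8 and 77.0 CPM, against 122 and 162 CPM. SPI1 had 342 and 416 CPM, against 349 and 409 CPM, and CD38 was higher, at 17.2 and 20.9 CPM, against 9.9 and 6.21 CPM. S100A9 made up most of the monocyte sum, with 5010 CPM in VEM and 4680 CPM in VEM+BOR, against 3360 and 3070 CPM untreated. CSF1R of the same list had 0.754 CPM in VEM and 1.09 CPM in VEM+BOR, against 7.2 and 2.66 CPM untreated. In BOR 1 and BOR 2 the myeloid list summed to 7880 and 6370 CPM and the monocyte maturation list to 3320 and 4740 CPM. Their part in the values of the mitotic genes was not tested.

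CDK1 was higher in VEM, with 4405 against 2718 and 2534 untreated, a log2 change of 0.75 ± 0.38 (SE, limma adjusted p = 1). INCENP had 2384, against 2178 and 1406, CDC25C had 357.7, against 302.3 and 300.2, and AURKB had 1504, against 1322 and 1319. In VEM these 4 were the members above both untreated libraries, and the excess was largest for CDK1. The remaining members named for their roles lay near or below the untreated pair. PLK1 had 2784, against 3144 and 4242, CDC20 had 3271, against 3782 and 5147, and CCNB1 had 4209, against 4416 and 6175. BUB1B had 1795, against 2041 and 1993, KIF20A had 1320, against 1458 and 1382, and AURKA had 2255, against 2221 and 2934. All but AURKA lay below both untreated libraries. PTTG1 had 2490, against 1868 and 2840, and PRC1 had 49.5, against 54.4 and 34.1.

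In VEM+BOR the members' median was close to that of all genes, and CDK1 was again the highest member. Limma called 0 of the 40 genes in VEM+BOR, where 0.173% of 15606 genes were called higher and 0.0192% lower. CDK1 alone was higher at an unadjusted p under 0.05, where 2.2% of genes were. Below both untreated libraries lay 14 members, where 27.9% of all genes did, and above both lay 8, where 30.1% did. The median log2 change was -0.02 over the 40 genes and 0.01 over all genes tested.

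CDK1 had 5580 in VEM+BOR, against 2730 and 2536 in untreated cells, over 2-fold the untreated mean and the only member past 2-fold higher, where 2.98% of all genes were. Its log2 change was 1.08 ± 0.38 (SE, limma adjusted p = 0.791), and over the alternatives its adjusted p ran from 0.13 to 1. CCNA2, whose product partners CDK1, had 4282, against 2949 and 3562, a log2 change of 0.40. AURKB, MAD2L1, KIF11, NDC80, CENPA and CDC25C were the other members above both untreated libraries, at 1.07 to 1.17 times the untreated mean. INCENP had 2163, against 2187 and 1408, and ANLN had 1240, against 1344 and 799.2, so both stood between the untreated libraries.

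MKI67 had 3848 in VEM+BOR, against 7625 and 5879 untreated, a log2 change of -0.80 ± 0.41 (SE, limma adjusted p = 1). CENPE had 641.7, against 1425 and 780.0, and CENPF had 1818, against 4240 and 2090. DLGAP5 had 856.3, against 1333 and 1292, a log2 change of -0.62. These 4 lay below both untreated libraries, and DLGAP5 stood furthest below them relative to the gap between the untreated pair. UBE2C had 18.7, against 42.1 and 56.5, and was the only member past 2-fold lower, where 3.26% of all genes were, at low counts. CCNB1 had 4389, against 4435 and 6182, CDC20 had 3926, against 3798 and 5152, and PLK1 had 3451, against 3157 and 4246. BUB1B had 1984, against 2050 and 1995, and AURKA, PTTG1, KIF20A and PRC1 lay between the untreated libraries.

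**Figure D4:**
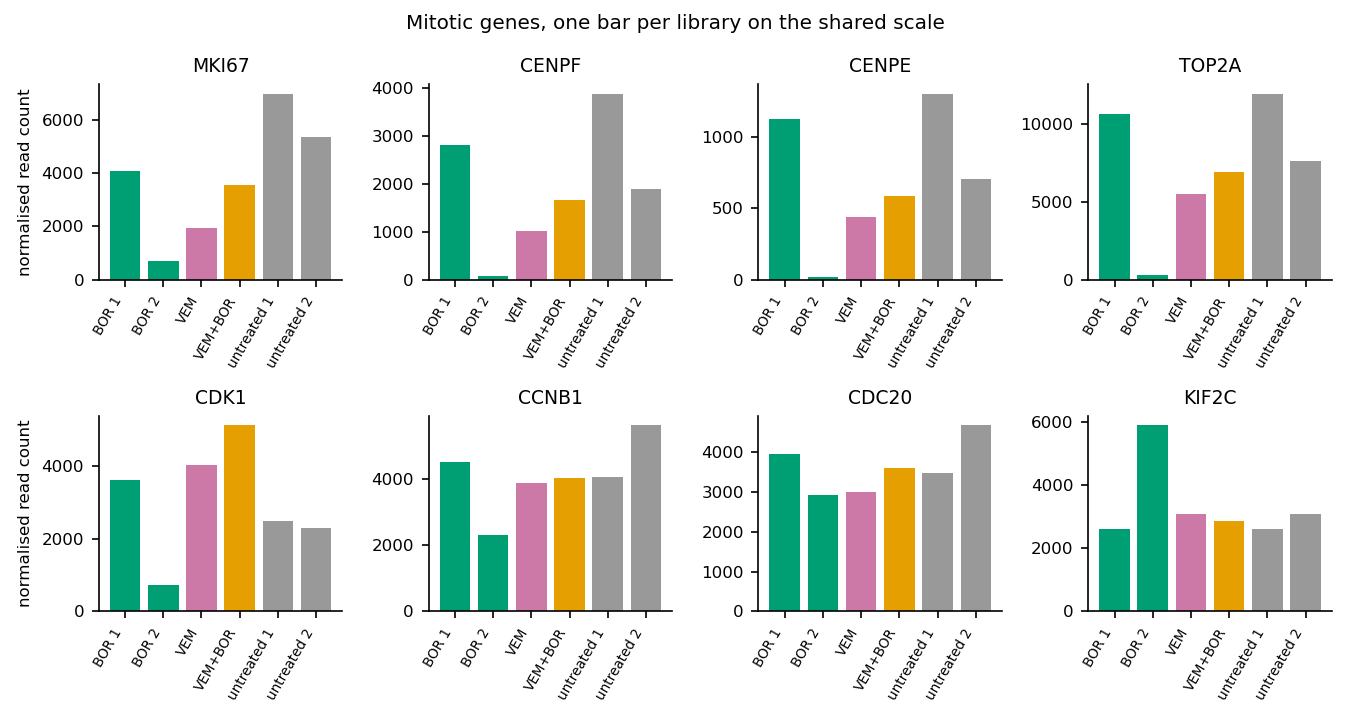
Normalised read counts of 8 members (y axis, from 0) in each library (x axis) on 1 scale shared by all 6 libraries, 1 bar per library, green for BOR, pink for VEM, orange for VEM+BOR and grey for untreated. BOR 2 is the lowest bar for MKI67, CENPF, CENPE, TOP2A, CDK1, CCNB1 and CDC20 and the highest for KIF2C, and VEM+BOR is the highest bar for CDK1.

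The combination was compared with VEM alone on a scale shared by all libraries, as 1 library over 1 with no test. VEM+BOR was above VEM for 33 of the 40 genes (82.5%), against 55.1% of 15438 genes, with a median log2 difference of 0.17, against 0.05 over all genes. MKI67 differed most, at 0.86, followed by CENPF at 0.72, ASPM at 0.56 and KIF11 at 0.47. UBE2C at -0.21 and CDC25C and PTTG1 at -0.15 were the lowest. CDK1 was above VEM by 0.34.

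Other genes of the same processes were taken from lists and gave no limma call in the BOR, VEM or VEM+BOR comparison with all libraries kept. Their calls in the fit without BOR 1 were not counted. In BOR 2, 24 other kinesins, spindle and cytokinesis genes had a median log2 difference of -1.43, close to the members' median, with KIF14 at -4.61, CKAP2L at -4.10 and CKAP5 at -3.87 as the lowest. The 12 condensin and cohesin control genes had a median of -0.76, with SGO2, which protects centromeric cohesion, at -3.46, NCAPG, a condensin subunit, at -3.26 and CDCA5, the cohesion factor sororin, at 1.54. The 33 other kinetochore and centromere genes had -0.17 and the 19 genes of the anaphase-promoting complex and mitotic exit had -0.11. In BOR 1 the medians of these 4 lists lay between -0.06 and 0.14. The 33 other kinetochore and centromere genes ran from SPDL1 at -4.29 to PMF1 at 1.49 in BOR 2. Their median there was nearer to untreated cells than those of the 6 kinetochore members (-3.55) and the 6 entry members (-0.83). The 8 tested entry control genes had a median of 0.003 in BOR 2 and 0.08 in BOR 1. The 14 transcriptional regulators of mitotic genes had 0.42 and 0.20. In BOR 2 these lists ran from MELK at -1.22 to CDC25A at 1.30 and from RBL1 at -2.61 to MYBL2 at 1.16. In VEM, the median log2 change of the 24 kinesin, spindle and cytokinesis genes was -0.21.

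By contrast with the members, 40 genes of the G1/S transition and DNA replication had a median of 0.94 in BOR 2 (0.60 after the GC and length class was subtracted) and -0.03 in BOR 1. E2F1, the transcription factor of S phase entry, stood at 2.44 and CDC6, which helps to load the replicative helicase, at 2.20 in BOR 2, while POLA1, the catalytic subunit of DNA polymerase alpha, stood at -2.75. The 6 tested cell cycle inhibitors had a median of 1.19 in BOR 2 (0.73 after the GC and length class was subtracted), with CDKN1C at 5.73 and CDKN1A, which encodes p21, at 4.10. In BOR 1 CDKN1A stood at 0.24. In VEM the inhibitors had a median of 0.78 and in VEM+BOR of 0.62, with CDKN1A at 1.16 in VEM and 1.10 in VEM+BOR. No inhibitor passed limma in either.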

How the data were processed

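RNA of SKM-1 cells was measured in 6 libraries, grouped by their treatment labels. Replicates were numbered by accession, and the numbers pair nothing. Messenger RNA was captured on poly-T beads and sequenced in pairs, with no strand-marking step named, per the labels' protocols. The submitters' processing notes list edgeR 3.22.5, DESeq2 1.20.0, HISAT2 2.0.5, CASAVA and featureCounts 1.5.0-p3 without roles. No source used here gives the genome build. Coordinates of the members equal those of GENCODE 29 (GRCh38).

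The 3 tables deposited by the authors each pair a treated group with the untreated libraries, and give a normalised signal (read count divided by 1 factor per library), a log2 fold change, a p-value and an adjusted p-value per gene, the last 3 being the authors' own. All signal values were whole multiples of their column's smallest step (100%, tolerance 0.001), so reads were recovered. The design had assumed raw counts, and limma on the normalised values took their place.

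Within each table, limma 3.58.1 (R 4.3.3) with a mean-variance trend was run on log2(value + 1), with a mean of at least 10 required, two-sided, with Benjamini-Hochberg adjusted p under 0.05 over all genes tested. A single treated library was assumed to vary like the untreated ones. Log2 differences of a library are from the mean log2 of the untreated libraries, and fold changes on this scale understate those of low genes. Fewer reads give lower precision. The tables were scaled separately, so untreated values differ slightly between comparisons. The joint scale used median-of-ratios factors. CPM are recovered reads scaled to the library total, divided by the gene's exonic length in kb, as the tables give it, where so stated. GC and length classes were 10 by 5 bins. The recovered reads were also fitted with DESeq2 1.42.0 and edgeR 4.0.16, and the fit was tested on simulated data.

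Named are members that passed, the 4 highest and 4 lowest in each treated library with at least 5 CPM, and a set of 11 central genes, and the other members by counts or fold. The members and gene lists were chosen with earlier results of these data known.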

Additional observations from a re-analysis of the deposited data

How the results depend on the processing

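Of 260 alternatives for 22 single-gene results, 252 kept direction and side of the threshold. None of the 22 passed in the main fit, so keeping the side meant staying uncalled and says little of the size of a change. The 6 BOR results among the 22 were the members that lay beyond both untreated libraries in both BOR libraries. With 1 library left out, the BOR log2 change ran from -4.65 to -0.088 for DLGAP5 and from -3.08 to -0.57 for MKI67. Other members that limma called without BOR 1, such as CENPE and HMMR, are not among the 260. CDC25C in BOR reversed with library-total scaling (-0.15), and in VEM+BOR ANLN (-0.11 to 0.65) and INCENP (-0.0078 to 0.64) reversed when 1 untreated library was left out. Leaving out BOR 1 brought MKI67, DLGAP5 and KIF4A past the threshold. For BOR, genes called were 35 with DESeq2 and 0 to 4008 with 1 library left out, the 4008 without BOR 1. The members' median was then -1.32 to 0.044 and members beyond both untreated libraries were 23 to 38, since 1 BOR library then has to clear both. The early minus late difference was -0.59 in BOR as deposited, -0.11 with edgeR, -0.12 with DESeq2, -0.21 with GC and length adjustment, -0.74 with genes of both phases counted as late, and -1.31 to 0.11 with 1 library left out. For VEM, genes called were 7, 0 without a filter, 40 with library-total scaling, 0 with all 6 libraries in 1 fit and 0 to 0 with 1 untreated library left out. The median was -0.11 with library-total scaling and -0.23 to -0.14 with 1 left out, and early minus late 0.20 without PRC1, -0.015 with both phases as late and 0.059 to 0.12 with 1 left out. For VEM+BOR, genes called were 30, 0 without a filter, 51 with TMM, 55 with upper quartile, 89 with library-total scaling, 0 in 1 fit, 87 with edgeR, 64 with DESeq2 and 0 to 0 with 1 left out. The median was -0.094 with upper quartile scaling, -0.068 with GC adjustment and -0.084 to 0.0048 with 1 left out, and early minus late -0.021 to 0.13. For BOR 2 over BOR 1, the median was -1.38 with TMM, -1.05 with upper quartile, -1.91 with library-total scaling, -1.40 with GC adjustment and -1.38 without PRC1, and early minus late -0.59 with GC adjustment and -1.39 without PRC1. The cause was not tested. Library-total scaling, GC and length adjustment and PRC1 left out were chosen after seeing the data. Leaving out an untreated library used all remaining libraries in 1 fit for VEM and VEM+BOR, and members beyond both untreated libraries were not computed then. EdgeR and DESeq2 were not run for VEM. No paired analysis was possible because the labels carry no replicate numbers that groups share. Depth limits UBE2C and PRC1, with counts under about 110 in every library. It also limits the BOR 2 values of members whose counts there were under about 110. These were CENPE (20.9), HMMR (32.6), NDC80 (36.6), TTK (39.2), DLGAP5 (45.7), ECT2 (47.0), ASPM (49.6), KIF23 (65.3), NUF2 (69.2), ANLN (75.7), CENPF (87.5) and NEK2 (88.8).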
